A study of Mus musculus with 4 samples.

Results

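Plasma cells were identified in the lungs of aged mice, in 4 libraries of single-cell RNA, by their secretory and antibody genes. A barcode was counted as a plasma cell if it had at least 10 UMIs (unique molecular identifiers, 1 per captured RNA molecule) of Jchain, at least 1 UMI of at least 2 of Mzb1, Derl3, Tnfrsf17 and Sdc1, and none of the T cell gene Cd3e. This rule found 109 plasma cells among 68675 barcodes kept for having no fewer than 500 genes and 1000 UMIs and no more than 10% mitochondrial UMIs. The mice were male C57BL/6, were 19 months old when treatment began, and were given BPTES or its vehicle DMSO for 1 month. BPTES is a small molecule that inhibits glutamine metabolism, and the series addresses what it does to the aged lung. Each group had 2 libraries, referred to as replicates 1 and 2. For each library 20000 CD45-negative and 9000 CD45-positive sorted cells of the same tissue were mixed, so the share of any cell type depends on this fixed mix. The labels do not say how many mice a library held, and p-values measure only the spread between libraries, which may be technical.

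Plasma cells are the end stage of the B cell lineage and are built to secrete antibody. Heavy and light chains enter the endoplasmic reticulum through the translocon, are glycosylated, folded by chaperones and disulfide enzymes, and leave for the Golgi, while misfolded chains are returned to the cytosol for degradation. J chain joins IgA into dimers and IgM into pentamers, and IgA and IgM made in airway and lung tissue can be carried across epithelium. A plasma cell normally expresses 1 heavy-chain and 1 light-chain rearrangement, so the constant gene gives its isotype and the variable (V) segments help to tell its clone.

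The libraries of BPTES replicates 1 and 2 held 38 and 29 plasma cells, and those of DMSO replicates 1 and 2 held 12 and 30. Their median depth was 59726.5, 59808, 75618 and 62741 UMIs, against 14987, 16184, 14478 and 14284 UMIs over all kept barcodes. All 5 genes that marked the cells were far above the level in other cells by the way the cells were chosen, so these values are a description. Jchain (ENSMUSG00000067149) ranged from 15 to 6808 UMIs per plasma cell with a median of 1670, and 3.36%, 2.76%, 3.95% and 3.81% of all plasma cell UMIs came from it in BPTES 1 and 2 and DMSO 1 and 2. Mzb1, an endoplasmic reticulum chaperone of B lineage cells, had a UMI in all 109 cells, Derl3, a degradation factor of the same compartment, in 106, Tnfrsf17, the receptor BCMA for survival signals, in 99, and Sdc1, the surface proteoglycan CD138, in 98. In 92 of the 109 all 4 were detected. Few cells lay close to the Jchain threshold: 2 plasma cells had 10 to 19 Jchain UMIs, 1 barcode with 5 to 9 and 41 barcodes with 1 to 4 met the rest of the rule, 7 barcodes with at least 10 had fewer than 2 of the 4 marker genes and 16 were set aside for a Cd3e UMI.

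Signs of other cells were measured in the same barcodes. Of the 7 T cell markers 5 had any UMI, with Cd3e (by the rule) and Cd8a at 0, and their summed level was 9.22 to 29.3 counts per 1000000 non-immunoglobulin UMIs (CPM), against 197 to 237 in all other barcodes. All 6 endothelial markers were detected, at 118 to 440 CPM in plasma cells against 2947 to 3497 in other barcodes, and all 5 fibroblast markers at 87.5 to 983 CPM against 1546 to 2857. Macrophage and monocyte markers (8 of 9 detected, Marco at 0) summed to 1177, 1346, 710 and 964 CPM in BPTES 1 and 2 and DMSO 1 and 2. In other barcodes they summed to 4844, 4804, 2586 and 3460. Neutrophil markers (5 of 5) summed to 57.4 to 1759 against 1663 to 3492. Alveolar epithelial markers (6 of 6) summed to 309, 275, 141 and 220 CPM in BPTES 1 and 2 and DMSO 1 and 2, against 14530, 13364, 4462 and 7056. Like the macrophage and monocyte markers, they were higher in both BPTES libraries, in plasma cells and in other barcodes. Airway markers (3 of 4, Bpifa1 at 0) summed to 18.4 to 59.7 against 706 to 1420. Natural killer (NK) cell markers (5 of 5) summed to 30.9, 248, 9.22 and 6.76 CPM in BPTES 1 and 2 and DMSO 1 and 2, against 125, 125, 202 and 187. The value of BPTES 2 came mostly from 1 barcode, which held 241 of the 285 NK marker UMIs there, and the other 28 cells had at most 10 each. Dendritic cell markers (7 of 7) summed to 289, 574, 288 and 316 CPM against 295, 254, 262 and 284, so that plasma cells were lower in BPTES 1 and higher in the other libraries. B cell markers (7 of 7) summed to 1019 to 1638 CPM against 147 to 402. At least 20 UMIs of the T cell, endothelial, fibroblast, neutrophil or macrophage and monocyte markers were carried by 9, 10, 3 and 11 plasma cells of BPTES 1 and 2 and DMSO 1 and 2, and some results are given below also without these cells. Some of the markers also stand in other lists read below. Ccr2 (macrophage and monocyte) and Epcam (alveolar) are also survival and homing genes there, and Bst2 (dendritic) is an interferon response gene. UMIs of these genes are thus no clear sign of other cells.

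In the library of DMSO replicate 2 some barcodes held nearly the same counts as each other. For each pair of plasma cells of a library, the squared difference in each gene's counts was divided by the variance that counting alone gives, and averaged over genes with at least 10 UMIs in the pair, so that 2 samplings of 1 RNA pool would give a value near 1. In DMSO 2, 8 pairs lay between 1.01 and 1.78, and all 8 had the same heavy and light V segments. The lowest of the other 1602 pairs was 2.15, in DMSO 1, and their median was 20.7. Thinned to 12000 UMIs per barcode, the 8 pairs lay between 1.04 and 1.88 and the lowest of the others that reached that depth was 2.21. The 8 pairs joined 10 barcodes into 4 sets, of 3, 3, 2 and 2 barcodes. One set of 3 also carried 56 to 131 endothelial marker UMIs per barcode, and a set of 2 carried 257 and 402 fibroblast marker UMIs. Counting each set once left 24 plasma cells in DMSO 2 and 103 in all, and some results are given below also in that way. Numbers of cells take every barcode unless stated. Between libraries, 65 to 104 kept barcodes of the 10x barcode list coincided per pair of libraries.

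**Figure D1:**
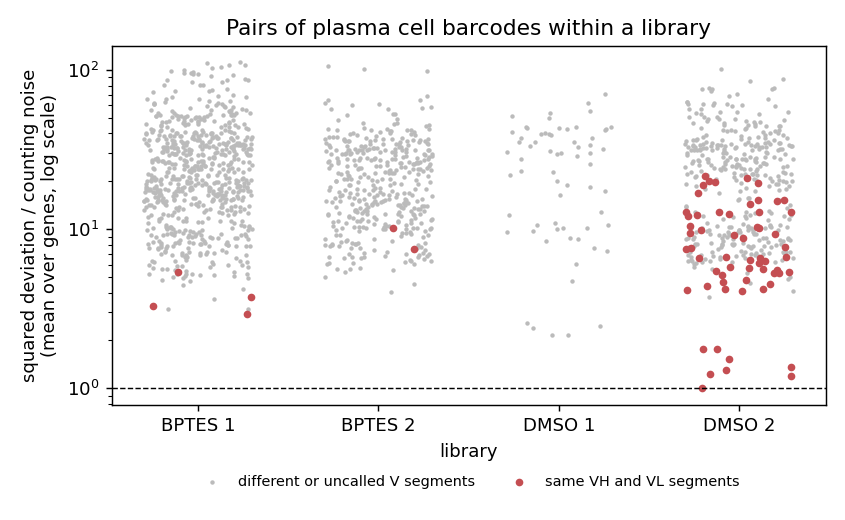
Squared difference over counting noise for every pair of plasma cell barcodes within a library (mean over genes, log scale), with pairs that share both V segments in red and all others in grey. In DMSO 2, 8 red points lie between 1.01 and 1.78, close to the dashed line at 1, below all the other pairs of the 4 libraries.

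Plasma cells made up 0.235% of the kept barcodes in BPTES 1 (exact binomial 95% interval 0.166 to 0.322%), 0.175% in BPTES 2 (0.117 to 0.251%), 0.0782% in DMSO 1 (0.0404 to 0.137%) and 0.146% in DMSO 2 (0.0985 to 0.208%). The intervals cover counting error only. Both BPTES libraries lay above both DMSO libraries, with means of 0.205 ± 0.0423% and 0.112 ± 0.0480% (SD, n = 2 each, two-sided exact permutation p = 0.333, the smallest that 2 libraries against 2 can give). Counting sets of near-identical barcodes once lowered DMSO 2 to 0.117%. With barcodes that had a UMI of Ptprc, the CD45 gene, or were plasma cells as the denominator (1 plasma cell of DMSO 1 and 2 of DMSO 2 had no Ptprc UMI), the shares were 0.681%, 0.468%, 0.215% and 0.380%.

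The isotype mix separated the libraries by treatment. A cell's isotype was the heavy-chain constant gene with most of its heavy-chain UMIs, and all 109 cells could be called: 52 IgA, 49 IgM and 8 IgG. A cell held a median of 6352 heavy-chain UMIs (range 84 to 24220), of which the leading gene supplied a median of 99.97%, and at least 80% in 106 of 109 cells. No cell was called as IgD or IgE. IgA cells numbered 30 of 38 in BPTES 1, 15 of 29 in BPTES 2, 1 of 12 in DMSO 1 and 6 of 30 in DMSO 2. IgM cells numbered 6, 11, 9 and 23 in the same order. IgA was therefore the majority isotype in the BPTES libraries, at 78.9% (exact 95% interval 62.7 to 90.4%) and 51.7% (32.5 to 70.6%), and the minority in the DMSO libraries, at 8.33% (0.211 to 38.5%) and 20% (7.71 to 38.6%). IgM made up 15.8% and 37.9% against 75.0% and 76.7%. The difference in mean share was 51.2 percentage points for IgA and -49.0 for IgM, each with a two-sided exact permutation p of 0.333, which this design cannot go below. These intervals take every barcode as separate. With each pair of V segments of a library counted once, IgA shares were 77.1%, 51.9%, 8.33% and 33.3%, a difference of 43.7 points (exact permutation p = 0.333), and the libraries of the groups still did not overlap. The exact 95% interval of DMSO 2 was wider when counted in that way, at 11.8 to 61.6%. With each pair counted once IgM shares were 17.1%, 37.0%, 75.0% and 60.0%, a difference of -40.4 points.

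**Figure D2:**
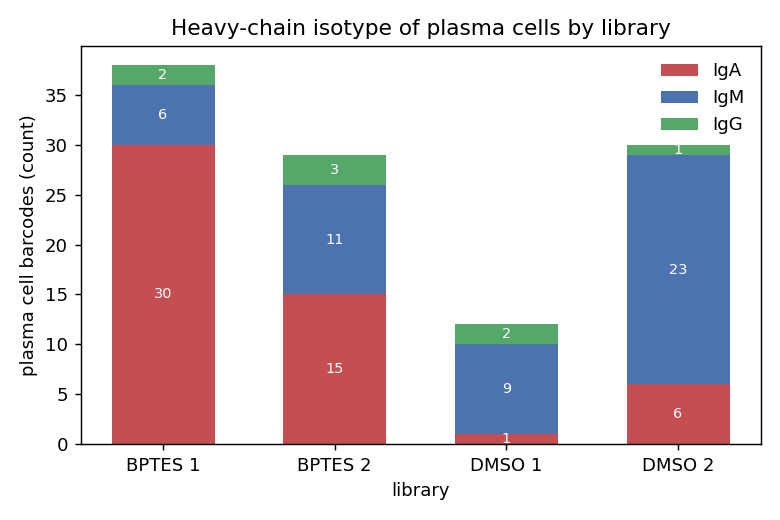
Number of plasma cell barcodes of each heavy-chain isotype in each library, as stacked bars from 0. IgA (30 and 15 cells) leads in the BPTES libraries, and IgM (9 and 23 cells) in the DMSO libraries.

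IgG cells were few, at 2, 3, 2 and 1 per library. They were led by Ighg2b in 4 cells (1 in each BPTES library and 2 in DMSO 1), by Ighg2c in 3 (2 in BPTES 2 and 1 in DMSO 2) and by Ighg3 in 1 cell of BPTES 1. None was led by Ighg1. Lambda light chains were used by 12 of 109 cells (6, 2, 2 and 2 per library) and kappa by 97, with lambda at 15.8%, 6.90%, 16.7% and 6.67% and no order by group (exact permutation p = 1). In 6 cells the minor light chain made up over 5% of light-chain UMIs, and it reached 40% in the Ighg3 cell of BPTES 1, which also had the fewest Jchain UMIs (15) and 124 B cell marker UMIs beside 122 of the plasma cell markers. Igha UMIs in endothelial cells were most frequent in BPTES 1 and least frequent in DMSO 1, the libraries with the most and the fewest IgA cells. Igha had a UMI in 21.7%, 6.15%, 1.04% and 6.40% of these cells, which are not known to make antibody, at 17.4, 4.30, 0.753 and 4.75 CPM of all UMIs and median depths of 12905 to 14126 UMIs. BPTES 2, with 15 IgA cells, thus lay slightly below DMSO 2, with 6, so this signal did not separate the groups. Ighm and Igkc in endothelial cells were ordered otherwise, at 6.83, 5.26, 7.17 and 19.7 CPM and 34.0, 26.5, 39.0 and 45.8 CPM, both highest in DMSO 2 and lowest in BPTES 2. In plasma cells Igha was 8.31%, 3.56%, 1.28% and 2.59% of all UMIs, and Ighm was 1.74%, 4.90%, 11.4% and 11.2%.

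V segments were called in a cell when 1 segment supplied at least 70% of its heavy or light V UMIs. Both were called in 29, 23, 9 and 28 cells, and these used 26, 21, 9 and 13 different pairs. The DMSO 2 library had the fewest pairs for its cells, with 20 of its 28 barcodes in 5 repeated pairs. The largest group was 11 barcodes with the heavy segment Ighv12-3 and the light segment Igkv4-91. All 11 were IgM, and they formed 7 distinct contents after sets of near-identical barcodes were counted once. This pairing is known from B-1a cells, a self-renewing B cell lineage, whose antibodies bind phosphatidylcholine. Each of the 11 held 9 to 179 Ighv12-3 UMIs and 24 to 268 Igkv4-91 UMIs. One IgM cell of DMSO 1 also used Ighv12-3, with all 190 of its heavy V UMIs, and had 712 of 1043 light V UMIs from its leading segment, just under the limit for a call. The germline coding sequences of the pair are shown because they mark this group, with the first exon, which encodes the start of the signal peptide, in capitals (GENCODE, GRCm38, minus strand). Ighv12-3 lies at chr12:114366521-114366954 and Igkv4-91 at chr6:68768555-68769103, each with 2 coding exons, and the first 300 bases of the joined exons are printed.
Ighv12-3: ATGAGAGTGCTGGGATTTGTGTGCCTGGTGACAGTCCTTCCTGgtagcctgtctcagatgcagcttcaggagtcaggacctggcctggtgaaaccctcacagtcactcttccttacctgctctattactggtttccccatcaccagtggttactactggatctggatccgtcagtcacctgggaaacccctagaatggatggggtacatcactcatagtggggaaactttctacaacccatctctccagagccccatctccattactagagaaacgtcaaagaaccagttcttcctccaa
Igkv4-91: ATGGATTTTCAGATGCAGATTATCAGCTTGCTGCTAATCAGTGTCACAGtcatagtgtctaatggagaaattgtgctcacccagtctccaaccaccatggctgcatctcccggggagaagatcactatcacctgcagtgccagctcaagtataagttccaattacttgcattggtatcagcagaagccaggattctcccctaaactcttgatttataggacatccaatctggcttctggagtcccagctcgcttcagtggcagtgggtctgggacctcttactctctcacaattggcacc

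Smaller groups of cells with the same pair occurred in 3 libraries. In BPTES 1 there were 3 IgA cells with Ighv1-81 and Iglv1 and 2 IgA cells with Ighv5-17 and Igkv13-84. In BPTES 2 there were 2 IgM cells with Ighv1-53 and Igkv12-46 and 2 IgA cells with Ighv10-1 and Igkv6-32. In DMSO 2 the pairs Ighv1-80 with Igkv8-24 and Ighv6-3 with Igkv4-57 were each in 2 IgM cells, and Ighv1-80 with Igkv1-110 in 3 IgM barcodes of 2 contents. No pair recurred within DMSO 1. The counts do not hold the junction sequences, so cells that share V segments were not shown to be clones. Only 2 pairs were met in more than 1 library: Ighv1-53 with Igkv3-2 in 1 IgM cell of each BPTES library, and Ighv1-9 with Igkv6-25 once in BPTES 2 and once in DMSO 2, with different isotypes.

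The share of a plasma cell's UMIs that came from immunoglobulin genes differed widely between cells and between libraries. It ranged from 1.09 to 66.4%, and 10, 8, 7 and 19 cells per library were above 50% while 12, 9, 2 and 3 were below 20%. Library medians were 33.9% and 30.4% with BPTES and 54.2% and 51.8% with DMSO, a difference of -20.8 percentage points (two-sided exact permutation p = 0.333, the smallest possible). The groups did not overlap, and the difference was -21.4 points without the cells that carried markers of other lineages. The isotype mix differed between the libraries of the 2 groups, so the medians were also read within isotypes. Among IgM cells they were 39.6% and 45.4% with BPTES against 52.8% and 51.9% with DMSO. Among IgA cells they were 31.0% and 20% with BPTES, 50.9% in the 6 cells of DMSO 2, and 55.6% in the only IgA cell of DMSO 1. In both isotypes the BPTES libraries were thus the lower ones, with n of 1 to 30 cells per value and no separate test.

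A small number of plasma cells expressed cell-cycle genes. Over 17 such genes, 7 cells had 124 to 883 UMIs and the next highest cell had 65. They were 4 cells of BPTES 1, 2 of BPTES 2, 1 of DMSO 1 and none of DMSO 2. By isotype, 5 were IgA, 2 were IgG and none was IgM. Their immunoglobulin share was 1.24 to 15.6%, with a median of 12.6% against 44.5% in the other 102 cells, and they had a median of 7067 detected genes against 5216.5. Mki67, a proliferation marker, had 23 to 154 UMIs in each of them. The 2 IgG cells held 124 and 127 B cell marker UMIs, against 22 to 68 in the 5 IgA cells. One of the 2 was the Ighg3 cell whose minor light chain reached 40%, and the other was the cell of DMSO 1. The cell with the most cell-cycle UMIs was an IgA cell of BPTES 1 with 119116 UMIs, 7773 genes and an immunoglobulin share of 8.17%. In 2 cases a cycling IgA cell shared both V segments with a cell under the limit of its own library, Ighv5-17 with Igkv13-84 in BPTES 1 and Ighv10-1 with Igkv6-32 in BPTES 2.

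**Figure D3:**
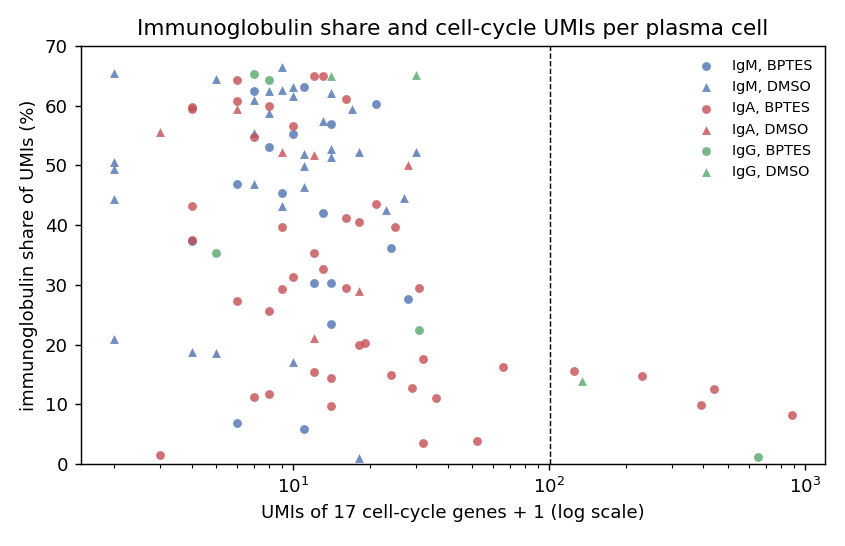
Share of each plasma cell's UMIs from immunoglobulin genes (y axis, %) against the summed UMIs of 17 cell-cycle genes plus 1 (x axis, log scale), coloured by isotype, with circles for BPTES and triangles for DMSO. The 7 cells right of the dashed line (100 UMIs) all have immunoglobulin shares of at most 15.6%.

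The secretory apparatus of these cells was compared with that of B cells of the same libraries, chosen by Cd79a and Ms4a1 (4220 barcodes). Because plasma cells were chosen by expression, these are descriptions with no test. Levels are CPM of non-immunoglobulin UMIs. Of 9305 genes with at least 10 CPM in either, 19.5% were higher in plasma cells than in B cells in all 4 libraries and 42.0% were lower in all 4, with a median log2 ratio of -0.27. Of the translocon and signal peptide processing genes, 20 of 22 were higher in all 4 libraries, with a median log2 ratio of 2.09. Sec11c, a catalytic subunit of the signal peptidase, had 1603, 1645, 1646 and 1637 CPM in BPTES 1 and 2 and DMSO 1 and 2 against a mean of 145 in B cells. These 4 values were close to each other, with no split by treatment. Ssr4, a translocon-associated protein, had 1335, 1493, 1879 and 1528 CPM against 103.

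Chaperones and disulfide enzymes of the endoplasmic reticulum were higher in all 4 libraries for 22 of 23 genes, with a median log2 ratio of 2.51. Hsp90b1 (the chaperone GRP94) reached 6620, 6654, 6355 and 5067 CPM against 422 in B cells, and Hspa5 (BiP), which binds unassembled heavy chains, 3384, 4199, 2691 and 3214 against 580. Both were above the B cell level in every library. Creld2 had a log2 ratio of 4.77, Fkbp11 of 4.76 and Sdf2l1 of 4.62. The exception was Ero1lb, an oxidase for disulfide formation, at 181 to 228 CPM against 497 in B cells. All 15 genes of endoplasmic reticulum degradation were higher in all 4 libraries (median 1.84), among them Herpud1 at 947 to 1248 CPM against 102. Of the oligosaccharyltransferase subunits 9 of 11 were higher (median 1.79), whereas Stt3b and Tusc3 were lower in all 4. Of the Golgi transport genes 19 of 21 were higher (median 1.30), led by Lman1, a cargo receptor for glycoproteins, at 402 to 444 CPM against 32.8.

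**Figure D4:**
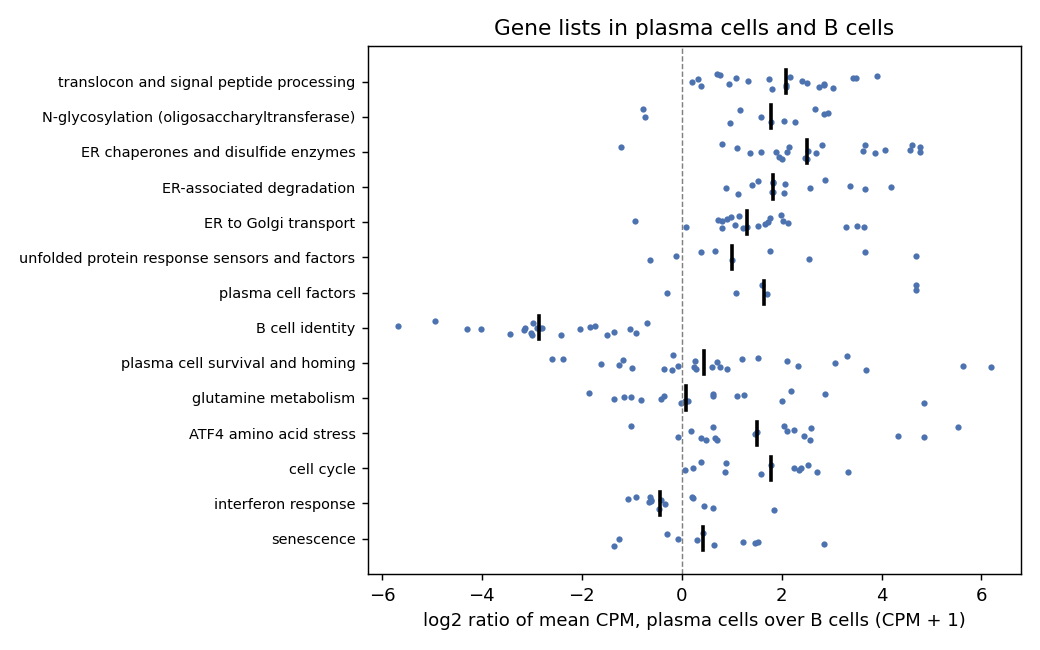
Log2 ratio of mean CPM in plasma cells over B cells (CPM + 1, n = 4 libraries each) for each gene of 14 lists, 1 point per gene, with the median of a list as a black bar. The 5 secretory lists have medians of 1.30 to 2.51 and B cell identity a median of -2.86.

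The promoters of this machinery are shown because one known control element could be read from sequence. The endoplasmic reticulum stress response element, CCAAT and CCACG with 9 bases of any kind between them, is bound by ATF6 with NF-Y and by XBP1 in the unfolded protein response, and Xbp1 is needed for antibody secretion. It was searched on both strands in windows from 250 bases before to 50 bases after the RefSeq start (GRCm38.p6), and 0.119% of 32851 windows held it. Of the chaperone and disulfide list, 19 of 24 genes matched a window and 7 held the element: Calr, Canx, Creld2, Dnajc3, Hsp90b1, Hspa5 and Pdia6. Counted in windows, this was 7 of 25 (28.0%). Syvn1, among 13 matched degradation genes, and Derl3, among 4 matched genes of the rule, also held it. None of the 16 matched translocon genes, 9 oligosaccharyltransferase genes, 17 Golgi transport genes or 12 B cell identity genes did. A match says only that these letters are there. The element was chosen as a known one of this response, so the counts are a description and no test. The stretches before the start of Derl3 (chr10:75893148-75893397, plus strand), Creld2 (chr15:88819396-88819645, plus strand) and Hsp90b1 (chr10:86705510-86705694, minus strand) are given 5′ to 3′ on the gene's strand, with the element on either strand in capitals. Hsp90b1 held it in both orientations.
Derl3: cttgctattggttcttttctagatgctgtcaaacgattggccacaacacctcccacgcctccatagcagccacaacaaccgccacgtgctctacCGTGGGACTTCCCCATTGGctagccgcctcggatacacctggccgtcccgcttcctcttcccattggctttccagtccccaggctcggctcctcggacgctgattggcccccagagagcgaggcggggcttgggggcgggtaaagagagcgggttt
Creld2: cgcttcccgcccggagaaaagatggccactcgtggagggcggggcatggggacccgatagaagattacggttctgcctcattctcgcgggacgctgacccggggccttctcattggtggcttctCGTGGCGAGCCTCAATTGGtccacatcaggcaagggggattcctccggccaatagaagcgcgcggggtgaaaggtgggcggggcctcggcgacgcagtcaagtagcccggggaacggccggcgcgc
Hsp90b1: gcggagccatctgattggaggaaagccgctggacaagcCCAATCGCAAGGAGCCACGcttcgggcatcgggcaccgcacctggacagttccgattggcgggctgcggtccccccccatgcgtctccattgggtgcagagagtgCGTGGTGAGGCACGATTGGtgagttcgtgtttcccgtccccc
The element alone is shown for the other 6 genes as it reads on the gene's strand, Calr having it in reverse: Hspa5 at chr2:34772025-34772043 (plus strand), Canx at chr11:50325800-50325818 (minus), Dnajc3 at chr14:118937827-118937845 (plus), Pdia6 at chr12:17266491-17266509 (plus), Syvn1 at chr19:6046532-6046550 (plus) and Calr at chr8:84847075-84847093 (minus).
Hspa5: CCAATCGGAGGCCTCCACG
Canx: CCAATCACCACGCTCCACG
Dnajc3: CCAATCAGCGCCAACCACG
Pdia6: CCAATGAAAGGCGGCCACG
Syvn1: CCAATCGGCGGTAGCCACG
Calr: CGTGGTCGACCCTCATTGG

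Of 6 plasma cell factors measured, 5 were above the B cell level in all 4 libraries, and Zbtb20 was below it in all 4, at 521 to 823 CPM against 831. Prdm1 (Blimp-1), which represses the B cell programme, had 372, 358, 323 and 379 CPM against 12.8 in B cells, a flat level over libraries. Xbp1, the spliced factor of the unfolded protein response, had 823 and 1071 CPM with BPTES and 1925 and 1768 with DMSO, against 53.3 in B cells. Irf4 had 320 and 320 CPM with BPTES and 671 and 503 with DMSO, against 138. All 22 B cell identity genes were below the B cell level in all 4 libraries. Pax5, the factor that maintains B cell identity, had 30.2, 34.0, 36.9 and 13.5 CPM against 580, and Cr2 at most 3.38 against 102. Cd74, the invariant chain of antigen presentation, was at 4054 to 6031 against 9490.5 CPM. Cd79a was at 545 to 814 against 1471, and the B cells were chosen by Cd79a and Ms4a1, so their levels of these genes follow from the choice.

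Outside antibody and rule genes, the highest ratio to all other barcodes among genes with at least 100 CPM belonged to Prg2, better known as an eosinophil granule protein, at 346, 269, 553 and 552 CPM against 0.328 in the remaining barcodes (log2 ratio 8.34). It was followed by the unannotated gene Gm30211, Oosp1, Cacna1s (a voltage-gated calcium channel subunit), Ly6k, Pls1, Prlr (the prolactin receptor), Eaf2, Fam46c and Trp53inp1. Trp53inp1 was even over libraries, at 1415, 1568, 1409 and 1447 CPM, whereas Ly6k was not, at 124, 4.36, 480 and 176. Ly6k UMIs were in 14 of 109 cells, with up to 161 in 1 cell. Ctla4, an inhibitory receptor best known from T cells, had 595, 538, 952 and 959 CPM, while Cd3e was at 0 by the rule. Irf4, Pou2af1 (a B lineage coactivator), Txndc5, Lax1, Phgdh (serine synthesis), Tnfrsf13b (the receptor TACI), Cacna1e, Creld2 and Sec11c completed the first 20.

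IgA and IgM plasma cells were compared within the 3 libraries that held at least 5 of each, BPTES 1, BPTES 2 and DMSO 2, with counts summed per library and isotype, a term for the library and immunoglobulin genes left out. CPM in this comparison are as scaled by edgeR. Of 7211 genes tested, 3 were called at an adjusted p under 0.05 (edgeR quasi-likelihood test, Benjamini-Hochberg), or 0.0416%: 2 higher in IgA (0.0277%) and 1 lower (0.0139%). An unadjusted p under 0.05 was reached by 805 (11.2%), 348 higher in IgA (4.83%) and 457 lower (6.34%). Pycard (ENSMUSG00000030793), the inflammasome adaptor ASC, had 1264, 1630 and 956 CPM in IgA cells of BPTES 1, BPTES 2 and DMSO 2, and 67.4, 87.3 and 76.3 in IgM cells (log2 fold change 4.02, SE 0.254, adjusted p = 0.0192 by edgeR). In each of the 3 libraries the summed IgA cells lay above the summed IgM cells, as they did, in either direction, for 35.6% of all genes tested. Single cells overlapped. All 52 IgA cells had a Pycard UMI, with a median of 33 and a range of 1 to 254, against 32 of 49 IgM cells, with a median of 1 and at most 13. In DMSO 2, 127 of the 197 Pycard UMIs of IgA cells were in 1 cell, and 20 and 38 in 2 near-identical barcodes. The other IgA cells there had 5, 1 and 6, within the range of 0 to 6 of IgM cells in that library. The 1 IgA cell of DMSO 1, outside the fit, had 5. The 8 IgG cells, outside this test, had 1 to 78 UMIs.

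Ncapg2 (ENSMUSG00000042029), a subunit of the condensin II complex, was also higher in IgA cells, at 225, 279 and 150 CPM against 13.5, 11.6 and 10.4 (log2 fold change 4.14, SE 0.337, edgeR adjusted p = 0.0429). It had a UMI in 37 of 52 IgA and 11 of 49 IgM cells, and no IgM cell had more than 2. In DMSO 2, 21 and 6 of the 31 Ncapg2 UMIs of IgA cells were in 2 near-identical barcodes, and the other IgA cells there had at most 2. With near-identical barcodes counted once Ncapg2 had a log2 fold change of 4.06 (edgeR adjusted p = 0.0372). Without the 7 cycling cells its adjusted p by edgeR was 0.0502 at a log2 fold change of 4.08. Pcsk5 (ENSMUSG00000024713), a proprotein convertase, was lower in IgA cells, at 3.53, 2.89 and 0 CPM against 153, 134 and 17.3 (log2 fold change -5.39, SE 0.466, edgeR adjusted p = 0.0429). That value rested on few cells: 33 of the 34 Pcsk5 UMIs in IgM cells of BPTES 1 were in 1 cell, all 46 in BPTES 2 were in 1 cell, and 9 of 49 IgM cells had any. Those 2 cells also held 73 and 45 fibroblast marker UMIs, and Pcsk5 was at a mean of 204 CPM in all other barcodes and 335 in endothelial cells. Without the cells that held at least 20 UMIs of other lineages too few libraries had 5 cells of both isotypes for a fit, so their part in the call was not tested. Without the cycling cells its adjusted p by edgeR was 0.0753, and Pycard was then the 1 gene called, with an adjusted p of 0.0167 by edgeR. Without BPTES 1 or without BPTES 2 no gene was called, with Pycard at log2 fold changes of 3.90 and 3.89 and adjusted p of 0.343 and 0.0912 by edgeR. Without DMSO 2, 260 genes were called.

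Homing and survival genes were read from a list of 27, of which 25 were tested and none was called. Unadjusted p was under 0.05 for 4 in the direction of IgA and 6 in that of IgM, beside 4.83% and 6.34% of all genes tested. Ccr10, a receptor for mucosal chemokines, had 124, 147 and 214 CPM in IgA cells against 13.5, 11.6 and 55.5 in IgM cells (log2 fold change 2.74, SE 0.426, edgeR adjusted p = 0.159). It had a UMI in 44 of 52 IgA cells and 14 of 49 IgM cells, and B cells had a mean of 0.107 CPM. The integrin subunits Itga4 and Itgb7, whose complex binds the mucosal addressin MAdCAM-1, had log2 fold changes of 1.47 and 2.11 (edgeR adjusted p = 0.159 and 0.187), with the isotypes apart in all 3 libraries. Ccr9 was the other gene in the direction of IgA (log2 fold change 2.33). In the direction of IgM were Tnfrsf13c, Cd93, Bcl2, Il6st, Itgb1 and Cxcr4. Their log2 fold changes were -1.70, -2.19, -1.35, -1.01, -0.98 and -0.96, in that order. Outside the list, Il5ra, the receptor chain for interleukin-5, and Prg2 also lay on the side of IgM. Il5ra had 54.7, 11.6 and 48.5 CPM in IgA against 364, 134 and 258 in IgM cells (log2 fold change -2.85, edgeR adjusted p = 0.110). Prg2 had 278, 126 and 238 against 939, 442 and 711 (log2 fold change -1.72, edgeR adjusted p = 0.144). Klrb1 had a UMI in 29 of 52 IgA cells and in 0 of 49 IgM cells, which allows a share of up to 6.12% of IgM cells with a UMI, for counting error only and with barcodes of shared contents taken as separate. Il5ra, Prg2 and Klrb1 were named after their values were seen. IgG cells were too few per library for a fit, and no library had 5 of them.

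The IgA cells varied widely among themselves in these genes, and are described here by Prg2, a split chosen after the values were seen, on genes also chosen then, and given with no test. Prg2 had at least 1 UMI in 22 of 52 IgA cells (12, 6, 1 and 3 per library) and none in 30 (18, 9, 0 and 3). The cells without Prg2 had a median of 64 Pycard UMIs (range 1 to 254), 33.5 of Anxa2 (a membrane-binding annexin) and 13 of Itgb7, against 5 (1 to 81), 1.5 and 3 in the cells with it. Klrb1 was detected in 22 of 30 against 7 of 22. The split was not clean: 3 IgA cells of BPTES 2 with 1 Prg2 UMI each had 68, 81 and 31 Pycard UMIs and at most 2 of Ly6a. Ly6a went the other way, with a median of 0 UMIs (at most 11) without Prg2 and 14.5 (at most 146) with it. The cells without Prg2 were also shallower, at a median of 49539 against 83989 UMIs, and their median immunoglobulin share was 15.5% against 52.5%. Among IgM cells 43 of 49 had a Prg2 UMI, and these 43 had a median immunoglobulin share of 51.3% and medians of 1 Pycard and 38 Ly6a UMIs. The IgM cells with Prg2 had medians of 1 UMI each of Anxa2 and Itgb7. The 6 IgM cells without Prg2 had a median immunoglobulin share of 19.9% and medians of 1.5 Pycard, 0 Anxa2, 1 Itgb7 and 24 Ly6a UMIs. The 2 IgG cells without Prg2 had medians of 44 Pycard, 55.5 Anxa2 and 18.5 Itgb7 UMIs, with 98.5 of Ly6a. The Ccr10 median was 7.5 UMIs in IgA cells with Prg2, 2.5 in IgA cells without it and 0 in IgM cells with Prg2, so that gene did not follow the same order.

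**Figure D5:**
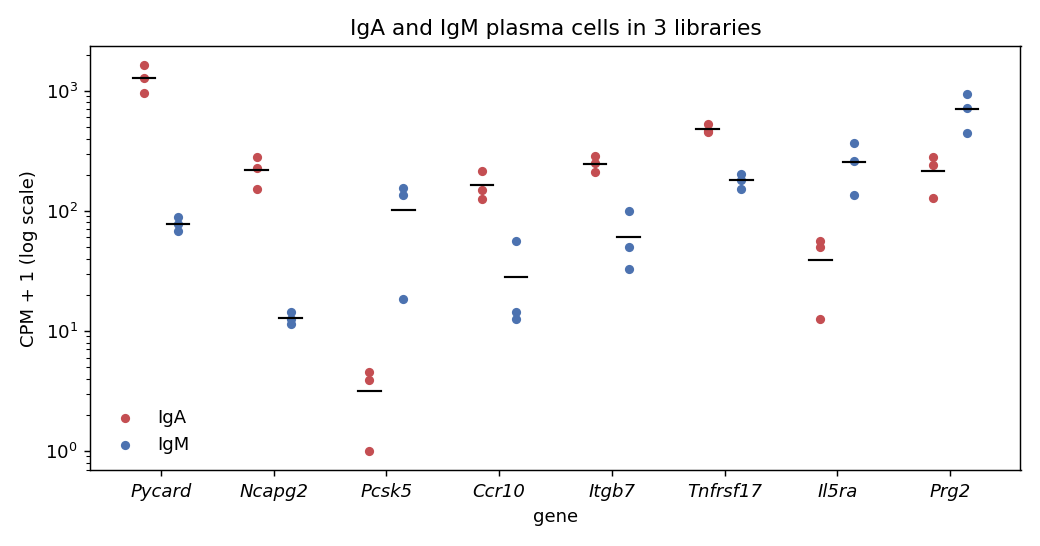
CPM + 1 (log scale) of 8 genes in IgA (red) and IgM (blue) plasma cells, 1 point per library (BPTES 1, BPTES 2 and DMSO 2) with the mean as a bar. Pycard lies at 956 to 1630 CPM in IgA and 67.4 to 87.3 in IgM cells, and Prg2 and Il5ra are on the side of IgM in all 3 libraries.

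The last comparison was of BPTES with DMSO within plasma cells, on counts summed per library. Of 8841 genes, 0 were called at an adjusted p under 0.05 by edgeR (0.0%), while 516 (5.84%) had an unadjusted p under 0.05 in the direction of BPTES and 520 (5.88%) in that of DMSO, and the smallest adjusted p was 0.0812. DESeq2 called 129. Without the 33 cells that held markers of other lineages edgeR called 99 of 6796 genes, and leaving out 1 library gave 21 called genes without BPTES 1, 15 without BPTES 2, 0 without DMSO 1 and 2 without DMSO 2. The isotype mix differed between the groups, and in IgM cells alone 0 of 5368 genes were called by edgeR, with 385 at an unadjusted p under 0.05. What the isotype mix adds to the differences below cannot be told apart from treatment in the pooled counts. Both reduced sets fell below the number of cells per library planned for this test. IgM cells alone numbered 6 in BPTES 1 and 9 in DMSO 1. DMSO 1 lost 3 of its 12 cells in the other set. The limit on markers of other lineages was set after the data were seen. The single genes below were chosen by p in the same counts, so a lower p in such a set is no separate support.

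Ly6a (ENSMUSG00000075602), the surface protein Sca-1, had the smallest p. It was at 451 and 485 CPM with BPTES and 2737 and 2311 with DMSO (log2 fold change -2.54, SE 0.168, edgeR adjusted p = 0.0812), and the groups did not overlap, as was true of 44.1% of all genes tested. Endothelial cells have high Ly6a, at a mean of 1976 CPM, and carried no such split between groups (1905 to 2030 CPM in the 4 libraries), nor did B cells (220 to 306 CPM). Without the plasma cells that held markers of other lineages the log2 fold change was -2.80 (edgeR adjusted p = 0.00155), and with near-identical barcodes counted once it was -2.57 (edgeR adjusted p = 0.0393). In IgM cells alone, Ly6a was at 756 and 1033 CPM against 2646 and 2874, with a log2 fold change of -1.73 (edgeR adjusted p = 0.242). The DMSO values drew much on cells with Ighv12-3. The cell of DMSO 1 with that segment had 347 Ly6a UMIs, the most of any plasma cell. In DMSO 2 the 11 barcodes with Ighv12-3 and Igkv4-91 had 16 to 265. The other IgM cells of DMSO 2 had 204 in 1 cell and 3 to 55 in the rest. What this group adds to the difference in Ly6a was not tested. Ly6a was also lower in IgA cells, the isotype more frequent with BPTES, than in IgM cells of the same library, at 377, 45.5 and 983 against 756, 1033 and 2874 CPM in BPTES 1, BPTES 2 and DMSO 2 (log2 fold change -2.21, SE 0.682, edgeR adjusted p = 0.324).

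Of the 3 other genes chosen in that direction, Ogn was at 36.2 and 43.6 CPM against 194 and 222 and Inmt at 155 and 120 against 510 and 503. Ogn (osteoglycin) and Inmt are both expressed by lung fibroblasts, and their means in all other barcodes were 556 and 1441 CPM. Summed fibroblast markers in plasma cells were 87.5 and 254 CPM with BPTES and 184 and 983 with DMSO. Without the cells that held markers of other lineages Inmt had a log2 fold change of -3.42, against -1.98 with them (edgeR adjusted p = 0.192 and 0.167), and Ogn no longer passed the filter on low counts. With a Jchain limit of 5 UMIs, which added 1 barcode, Ogn moved from -2.50 to -1.31 (edgeR adjusted p = 0.135 and 0.503) and Inmt to -1.42 (edgeR adjusted p = 0.237). Ighv12-3, the heavy segment of the 11 IgM barcodes in DMSO 2 and of 1 of 9 IgM cells in DMSO 1, also lay in that direction (log2 fold change -8.18, edgeR adjusted p = 0.157), with 3.95 and 0 CPM with BPTES against 438 and 821 with DMSO. In the direction of BPTES, Glud1 (ENSMUSG00000021794), the mitochondrial glutamate dehydrogenase, had 376 and 425 CPM against 136 and 135 (log2 fold change 1.45, SE 0.168, edgeR adjusted p = 0.167). It did not differ in that way in B cells, at 166 and 177 against 175 and 178 CPM. Within plasma cells Glud1 was also higher in IgA than in IgM cells of each library, at 407, 639 and 221 CPM against 279, 121 and 112 in BPTES 1, BPTES 2 and DMSO 2. S100a10 was at 913 and 704 against 233 and 226, Ripor2 at 428 and 470 against 157 and 151, and Klrb1 at 59.8 and 87.1 against 2.31 and 2.25 CPM. The direction of S100a10 was not particular to plasma cells, though the differences elsewhere were smaller. It was at 316 and 310 against 238 and 279 CPM in B cells and 665 and 673 against 643 and 566 in T cells. In endothelial cells it was at 197 and 228 against 168 and 179, and in all other barcodes at 256 and 298 against 245 and 245. The values of Klrb1 in DMSO 1 and 2 came from 1 and 2 UMIs. No IgM cell of any library had a Klrb1 UMI, so IgM cells alone gave no value for it. In IgM cells alone Ripor2 turned to a log2 fold change of -0.45 (edgeR adjusted p = 0.815) from 1.44, and S100a10 was at 0.86 (edgeR adjusted p = 0.769) against 1.71. The barcode of BPTES 2 with most of the NK marker UMIs held 6 of the 100 Klrb1 UMIs of that library. Without the cells that held markers of other lineages, that barcode among them, Klrb1 had a log2 fold change of 4.28 (edgeR adjusted p = 0.00959), Ripor2 of 1.48 (0.0342), S100a10 of 1.55 (0.0301) and Ighv12-3 of -7.92 (0.00212). In the isotype comparison S100a10, Ripor2 and Klrb1 were all on the side of IgA, the isotype that was more frequent with BPTES. Glud1 had a log2 fold change of 1.78 (edgeR adjusted p = 0.0158) without the cells that held markers of other lineages, and of 0.52 (edgeR adjusted p = 0.871) in IgM cells alone.

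The gene lists gave no call for treatment, and their counts at an unadjusted p under 0.05 stand beside 5.84% of all genes in the direction of BPTES and 5.88% in that of DMSO. Glutamine metabolism had 19 of 22 genes tested, with 2 at an unadjusted p under 0.05 in each direction and a median log2 fold change of -0.09, against -0.0049 over all genes. Amino acid stress genes controlled by ATF4 had 19 tested, 7 at an unadjusted p under 0.05, all in the direction of DMSO, and a median of -0.76. Among these, Pycr1 (proline synthesis) had 35.5 and 23.5 against 96.8 and 99.1 CPM and Eif4ebp1, a translation inhibitor, 45.4 and 49.7 against 115 and 117. In the comparison of IgA with IgM, 5 of 17 genes of this list were lower in IgA at an unadjusted p under 0.05. None was higher, and the median log2 fold change was -0.51. Of 13 cell-cycle genes tested 8 had an unadjusted p under 0.05, all in the direction of BPTES, with a median of 2.20. Top2a was at 216 and 68.0 against 11.5 and 7.88 CPM, and 6 of the 7 cycling cells were in BPTES libraries. Between isotypes, 5 of 10 cell-cycle genes were higher in IgA at an unadjusted p under 0.05 and 0 lower, with a median of 2.19. IgA was the isotype more frequent with BPTES. Unfolded protein response factors had 5 of 9 in the direction of DMSO, Xbp1 among them (log2 fold change -1.08, edgeR adjusted p = 0.182). Survival and homing genes had 3 of 26 in the direction of BPTES and 8 in that of DMSO, plasma cell factors 3 of 6 in that of DMSO, and B cell identity 3 of 19 in that of BPTES. The secretory lists had medians between -0.29 and 0.03, with 2 and 2 of 22 translocon genes, 0 and 1 of 11 oligosaccharyltransferase genes, 1 and 4 of 24 chaperone and disulfide genes, 0 and 3 of 15 degradation genes and 1 and 1 of 21 Golgi transport genes in the directions of BPTES and DMSO. Of the interferon response genes 0 of 12 had an unadjusted p under 0.05, and of the senescence list 3 of 10, Ccl3 and Ccl4 on the side of BPTES and Cdkn1a on that of DMSO.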

How the data were processed

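Dissociated lung cells sorted by CD45 were profiled with the 10x Chromium GEM-X 3' v4 assay in 4 libraries. The authors deposited whole-number UMI counts per gene and barcode and, per the submitters' processing notes, used Cell Ranger 8.0.1 with the build mm10. The libraries held 17787, 17844, 16440 and 21986 barcodes (BPTES 1 and 2, DMSO 1 and 2), of which 16191, 16586, 15349 and 20549 passed the filters, and 260346570 to 342107092 UMIs each. No ambient RNA was removed here. A planned doublet rule (at least 3 UMIs of another lineage's markers) would have removed all 109 plasma cells, so a limit of 20 UMIs, added after the data were seen, served as an alternative.

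The members and the gene lists were chosen with earlier results of these data known. Counts were summed per library, or per library and isotype where at least 5 cells of each were present, and tested with edgeR 4.0.16 (quasi-likelihood test, TMM, filterByExpr, Benjamini-Hochberg) in R 4.3.3. DESeq2 1.42.0 was an alternative, with other Jchain and mitochondrial limits, no filter, a replicate block and each library left out. The fits were also run on simulated counts drawn from 1 mean per gene. These lacked the differences in isotype and V segments between libraries, so they do not show how the fits behave on these cells. Single values per library were compared by two-sided exact permutation with scipy 1.17.1. Levels are counts per 1000000 UMIs of non-immunoglobulin genes (CPM) with a pseudocount of 1 in log2 ratios, while fitted values were scaled by edgeR. Besides the rule and constant genes and the 20 leading genes, genes were named where called, or, with no call, as the 4 per direction with the smallest p among non-overlapping genes of at least 10 CPM, and as list members. Promoters came from RefSeq (GRCm38.p6) and V segments from GENCODE (GRCm38). Columns of other samples numbered 0.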

Additional observations from a re-analysis of the deposited data

How the results depend on the processing

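The share of plasma cells, the IgA and IgM shares and the immunoglobulin share kept their direction under every setting run. Leaving out 1 library at a time gave differences of 0.0588 to 0.127 percentage points for plasma cells, 37.6 to 64.8 for IgA, -60.0 to -37.9 for IgM and -22.6 to -19.1 for the immunoglobulin share. The IgG difference ranged from -8.86 to 4.47 and the lambda difference from -5.32 to 4.68 in the same way, and lambda was 0.0129 with at least 20 Jchain UMIs and 7.42 without cells holding markers of other lineages. Ripor2 had a log2 fold change of -0.45 in IgM cells alone. For BPTES against DMSO the count of called genes was 0, but 129 with DESeq2, 1 without immunoglobulin genes and Jchain, 730 with no filter on low counts, 99 without cells holding markers of other lineages, 1 with near-identical barcodes counted once, and 0 to 21 with 1 library left out. For IgA against IgM it was 3, but 100 with DESeq2, 427 with no filter, 1 without the cycling cells and 0 to 260 with 1 library left out. The causes were not tested. Ly6a passed the threshold in 8 of 15 alternatives, with adjusted p from 6.57e-41 to 0.242. With the replicate number as a block 3 genes were called for BPTES against DMSO, but nothing says that equal numbers mark a pair, and deviations of same-numbered libraries correlated at 0.119 over 8841 genes. The planned removal of probable doublets left no plasma cell and was not run. With 2 libraries a group no exact permutation test could go below 0.333, and with 12 plasma cells DMSO 1 carried the least depth.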
